A study of Mus musculus with 12 samples.

Results

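The T cell receptor segments were the rows of the count table whose symbol names a constant (C) or variable (V) segment of the alpha, beta, gamma or delta receptor locus and that held at least 3 counts over all libraries. This rule took 16 of the 21247 rows. They were Trac of the alpha locus, Trbc1, Trbc2 and 9 Trbv rows of the beta locus, Trdc, Trdv4 and Trdv5 of the delta locus, and Trgv2 of the gamma locus. The gamma constant segments carry Tcrg symbols in this table and were not caught by the rule. The 6 Tcrg rows were therefore read beside the 16 and are never counted with them.

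RNA was sequenced from periocular skin biopsies of 6-week-old BALB/c mice, labelled as female, with 4 ft/ft and 4 ft/ftMyD88-/- libraries. ft/ft mice are homozygous for a point mutation of spontaneous origin that costs filaggrin, a protein of the epidermal barrier, its function, on a line from which the ma mutation had been removed. ft/ftMyD88-/- mice carry the same filaggrin mutation and also lack MyD88, the adaptor of Toll-like and IL-1 receptor signalling, and came from an in-house cross of ft/ft with MyD88-deficient mice. The deficiency is germline, so every cell type of the skin lacks MyD88, and both groups share the filaggrin mutation. The 4 wild-type samples were not analysed here. The comparison asks how T cell receptor transcripts in filaggrin-deficient skin differed with and without MyD88.

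Total counts ran from 18941705 to 29255129 in the ft/ft libraries and from 15802957 to 27037997 in the ft/ftMyD88-/- libraries. The Myd88 row did not fall with the label (mean 41.2 CPM, counts scaled to library size, in ft/ftMyD88-/- against 30.7 in ft/ft), and which exons the allele lacks is not given in the sources used here, so the direction of every difference rests on the labels, and the group names below mean the libraries labelled so. Sex-linked transcripts separated the groups. Xist averaged 49.4 CPM in the ft/ftMyD88-/- libraries and 0.0107 CPM in the ft/ft libraries, and the Y-linked Ddx3y averaged 0.147 and 65.0 CPM, against the label of females throughout. Genotype and sex therefore cannot be told apart in any result below. In a biopsy, fewer cells of a type and less RNA per cell cannot be told apart either. Keratinocyte transcripts were abundant, as the label of skin implies, and the 8 listed markers summed to 18984 to 31864 CPM in each library, with 0 higher and 4 lower in ft/ftMyD88-/- skin (Krt5, Krt10, Lor and Dsg1a).

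A T cell recognises its target through a receptor made of an alpha and a beta chain or of a gamma and a delta chain. Each chain is encoded by a V segment joined to a J segment during T cell development and spliced to a C segment. Beta and delta chains also use a D segment. Counts of C and V rows show which segments were transcribed. They do not show which cells made the transcripts or whether a chain was made. Mouse skin holds alpha beta T cells, dendritic epidermal T cells whose receptor pairs Vγ5 with Vδ1, and dermal gamma delta T cells, among which those using Vγ4 or Vγ6 are known for IL-17. In the naming of these rows Trdv4 encodes Vδ1 and Tcrg-V5 encodes Vγ5. Whether the Trdv4 counts came from epidermal T cells alone was not tested.

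Sequence decides how well a read can be given to 1 segment. All sequences here are those of GENCODE M21 transcripts on GRCm38, a C57BL/6J reference, whereas the mice were BALB/c. Trbc1 and Trbc2, the alternative beta constant segments, had 1 differing base in the 375 coding bases of exon 1, an identity of 99.7%, and 22 differing bases in the 143 coding bases of exons 2 to 4, an identity of 84.6%. The coding bases of exons 2 to 4 are printed because these are where reads can separate the pair, with the bases that differ in capitals (Trbc1 within chr6:41539114-41539662 and Trbc2 within chr6:41547610-41548178, both on the plus strand).
Trbc1: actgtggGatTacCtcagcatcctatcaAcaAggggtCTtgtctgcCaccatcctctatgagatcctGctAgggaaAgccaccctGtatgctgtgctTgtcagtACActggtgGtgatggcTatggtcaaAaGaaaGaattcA
Trbc2: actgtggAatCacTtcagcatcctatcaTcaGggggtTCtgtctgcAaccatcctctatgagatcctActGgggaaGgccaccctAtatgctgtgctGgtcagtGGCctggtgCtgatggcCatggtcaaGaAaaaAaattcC

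The 3′ ends of V segments are printed for those that carry the results, since the receptor's joint begins there. Each is the last 60 bases of the V exon on its own strand. Capitals mark TANTNNTGT, letters around the conserved cysteine codon that ends the framework of a V domain, searched on both strands.
Trgv2: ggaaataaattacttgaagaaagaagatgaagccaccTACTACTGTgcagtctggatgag
Trdv4: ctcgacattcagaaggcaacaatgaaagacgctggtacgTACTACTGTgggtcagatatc
Trdv5: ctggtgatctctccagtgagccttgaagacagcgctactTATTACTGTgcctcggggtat
Trbv1: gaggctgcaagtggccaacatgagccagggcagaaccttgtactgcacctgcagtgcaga
Trbv13-1: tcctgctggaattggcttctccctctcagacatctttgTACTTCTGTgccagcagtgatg
Trbv19: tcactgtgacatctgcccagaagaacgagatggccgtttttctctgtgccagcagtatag
Tcrg-V4: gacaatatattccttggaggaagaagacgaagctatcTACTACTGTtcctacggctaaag
Tcrg-V5: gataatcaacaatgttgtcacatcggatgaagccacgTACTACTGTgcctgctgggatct
Tcrg-V6: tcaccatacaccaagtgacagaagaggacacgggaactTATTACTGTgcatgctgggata
Of 194 annotated V transcripts of all 4 loci, 132 (68.0%) held this motif in their last 60 bases on the coding strand and 2 (1.03%) on the other strand. These letters were not found in the windows of Trbv1 and Trbv19. Trgv2 (chr13:19336573-19336632, minus strand) lies on the same strand as Tcrg-C2, a gamma constant segment, while Tcrg-C1 and Tcrg-C4 lie on the other. Trdv4 (chr14:54075456-54075515, plus) lies upstream of Trdc, and Trdv5 (chr14:54148662-54148721, minus) overlaps the 3′ end of Trdc. The other windows are Trbv1 at chr6:40891826-40891885, Trbv13-1 at chr6:41116409-41116468, Trbv19 at chr6:41178989-41179048, Tcrg-V4 at chr13:19185447-19185506, Tcrg-V5 at chr13:19192666-19192725 and Tcrg-V6 at chr13:19190870-19190929, all on the plus strand.

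The share of windows of read length, 50 bases, that occur in no other annotated gene was computed for each row. It was 100% for Trac and 94.1% for Trdc, but 59.5% for Trbc1 and 56.0% for Trbc2, which share 283 windows with each other. Trdv5 had 59.4% because its last 207 bases lie opposite the final exon of Trdc, and reads from the overlapping part of these genes cannot be told apart without strand. Trgv2 shared 31 windows with Tcrg-V1 and had 93.0% of its own. Tcrg-C1 (65.8%) and Tcrg-C2 (74.6%) share windows with Tcrg-C3 and with each other, and the remaining V rows lay between 98.1% and 100%. The counts of Trbc1, Trbc2, Trdv5, Tcrg-C1 and Tcrg-C2 are uncertain to that extent.

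**Figure D1:**
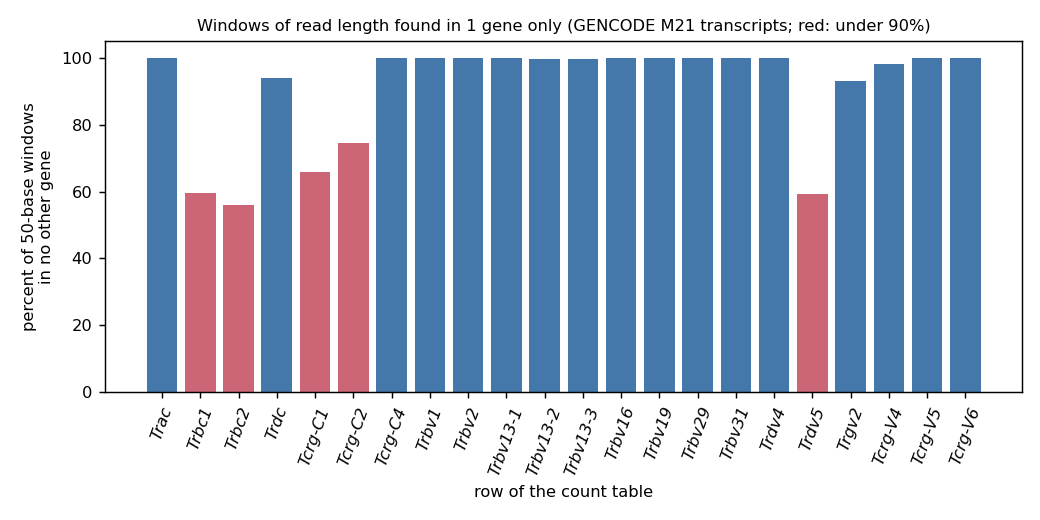
Percent of 50-base windows (vertical axis) of each constant or variable row (horizontal axis) that occur in no other GENCODE M21 gene. Red bars are under 90%: Trbc1, Trbc2, Tcrg-C1, Tcrg-C2 and Trdv5.

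The summed level of the T cell receptor segments was higher in ft/ftMyD88-/- skin, and the constant segments carried most of the counts. The 16 rows held 3889 counts over the 8 libraries, of which 88.1% were in the 4 constant rows, and single rows held from 9 to 1975. Summed over all 16 rows the level was 18.5, 14.7, 15.5 and 15.1 CPM in the ft/ft libraries and 18.9, 25.3, 25.2 and 31.7 CPM in the ft/ftMyD88-/- libraries. The groups did not overlap, although ft/ftMyD88-/- replicate 1 lay close to ft/ft replicate 1. The ratio of the means (25.3 ± 5.22 over 15.9 ± 1.74 CPM, SD, n = 4) was 1.59. CPM here is scaled by TMM, edgeR's correction for library composition.

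Of the 16 rows, 15 had the 10 counts needed for the test, and Trbv31 did not. With edgeR's quasi-likelihood test, 6 of the 15 were higher in ft/ftMyD88-/- at a Benjamini-Hochberg adjusted p under 0.05 over all 20454 genes tested, 0 were lower and 9 did not pass. Among all genes tested, 10.9% were higher and 12.3% lower. No segment was lower at an unadjusted p under 0.05 either (0 rows), and limma voom and DESeq2 also called 0 lower. The 6 were the constant segments Trac, Trbc1 and Trdc and the variable segments Trgv2, Trbv13-1 and Trbv19. The log2 fold change was positive in 14 of the 15 rows with a median of 1.09, against 51% of all genes and a median of 0.01. In 6 rows every ft/ftMyD88-/- library lay above every ft/ft library and in 0 rows below, against 12.5% and 14.2% of all genes, or 26.7% for both directions. Trbv13-1 and Trbv19, with 1 ft/ft count each, reached the 10 counts only through the ft/ftMyD88-/- libraries. These 2 rows therefore add to the higher and positive rows by the filter itself. Trbv1 (6 ft/ft against 24 ft/ftMyD88-/- counts) and Trdv5 (6 against 23) fell short of 10 in the ft/ft libraries alone. Both held 10 in the ft/ftMyD88-/- libraries alone, so they can add to the positive rows in the same way. The 6 rows without overlap include Trbv1 and Trbv19. The count of higher rows was 3 without ft/ftMyD88-/- replicate 4, when Trdc, Trgv2 and Trbv13-1 no longer passed.

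**Figure D2:**
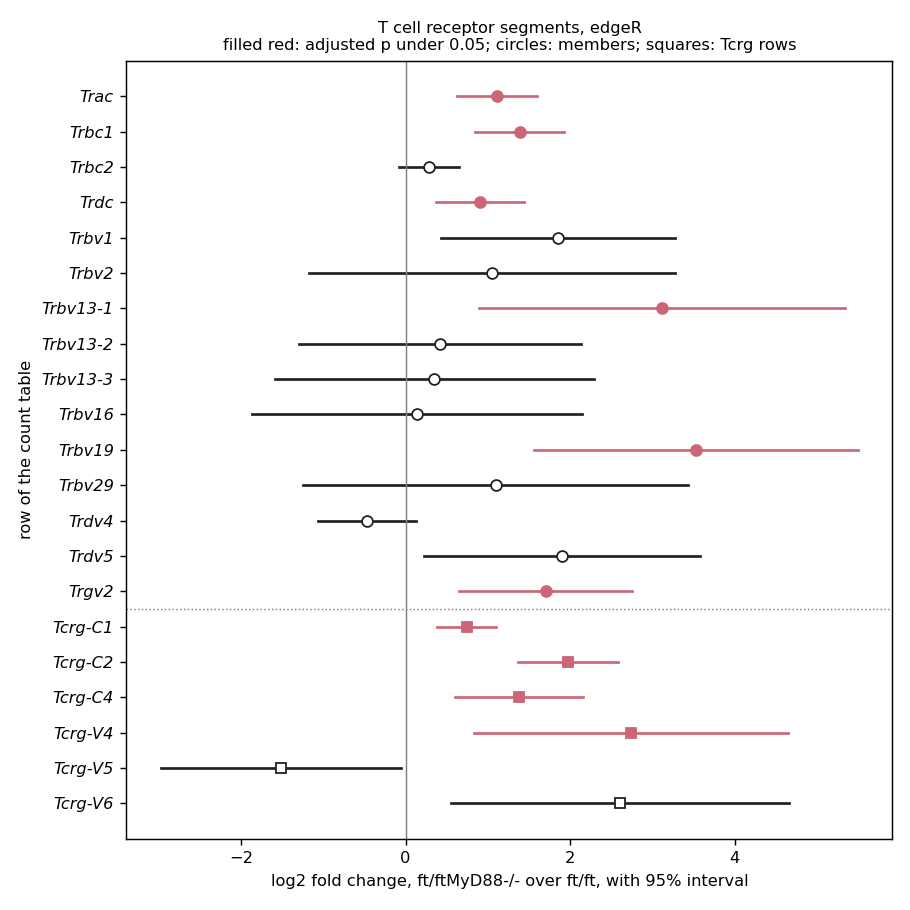
Log2 fold change of ft/ftMyD88-/- over ft/ft (horizontal axis) with its 95% interval from edgeR for the 15 tested rows (circles) and the 6 Tcrg rows (squares). Filled red symbols passed the test: 6 circles and 4 squares, all to the right of 0, while Trdv4 and Tcrg-V5 are the rows left of 0 and did not pass.

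Among the constant segments, Trac, Trbc1 and Trdc rose in ft/ftMyD88-/- skin and Trbc2 did not pass the test. Trac encodes the alpha chain's constant region, found in alpha beta T cells. Its counts were 21, 26, 22 and 25 in the ft/ft libraries and 38, 72, 64 and 35 in the ft/ftMyD88-/- libraries. After scaling, the groups did not overlap (1.01 ± 0.148 against 2.16 ± 0.401 CPM), with a log2 fold change of 1.11 (SE 0.223, adjusted p = 0.00436). The exact two-sided permutation test over the libraries gave p = 0.0286, the smallest that 4 against 4 allows.

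Of the beta constant segments Trbc1 rose and Trbc2 did not pass, and the difference between their changes was not tested. Trbc1 had 60, 58, 23 and 46 counts in ft/ft libraries and 80, 127, 157 and 114 in those labelled ft/ftMyD88-/-, with no overlap between the groups. Its mean rose from 1.93 ± 0.545 to 5.12 ± 1.44 CPM, a log2 fold change of 1.39 (SE 0.249, adjusted p = 0.00232). Trbc2, the more abundant of the pair, had 274, 228, 151 and 240 counts in ft/ft libraries and 196, 313, 333 and 240 in those labelled ft/ftMyD88-/-. Here the groups overlapped (9.42 ± 1.60 against 11.5 ± 2.47 CPM), and the log2 fold change of 0.29 did not pass (SE 0.169, adjusted p = 0.247, exact permutation p = 0.286). Per kilobase of exon the mean level of Trbc2 exceeded that of Trbc1 in both groups, at 13.6 against 2.58 CPM per kb in ft/ft and 16.6 against 6.83 CPM per kb in ft/ftMyD88-/-. Trac, whose chain pairs with a beta chain, lay below both, at 1.08 CPM per kb in ft/ft and 2.31 CPM per kb in ft/ftMyD88-/-. The cause of this gap was not tested.

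The share of Trbc1 in the summed counts of Trbc1 and Trbc2 was 18.0, 20.3, 13.2 and 16.1% in the ft/ft libraries and 29.0, 28.9, 32.0 and 32.2% in the ft/ftMyD88-/- libraries. The groups did not overlap. The nearest libraries were ft/ft replicate 2, with a Wilson 95% interval of 16.0 to 25.3%, and ft/ftMyD88-/- replicate 2, with 24.8 to 33.3%. These intervals cover counting error only. A share over rows of one locus was given no test, and how reads common to the pair were counted was not tested.

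Trdc encodes the constant region of the delta chain, a part of the gamma delta receptor. It had 39, 53, 45 and 28 counts in ft/ft libraries and 64, 101, 88 and 64 in those labelled ft/ftMyD88-/-. Every ft/ftMyD88-/- library was above every ft/ft library in CPM (1.80 ± 0.596 against 3.35 ± 0.535), and the log2 fold change was 0.91 (SE 0.246, adjusted p = 0.0194). Without ft/ftMyD88-/- replicate 4 the adjusted p was 0.0569. Trdc made up 65.0, 67.1, 67.2 and 52.8% of the summed Trdc and Trac counts of the ft/ft libraries and 62.7, 58.4, 57.9 and 64.6% of those labelled ft/ftMyD88-/-. The groups overlapped in this share, and their means were 63.0 ± 6.87% and 60.9 ± 3.31%. Trdc has 3865 bases of exon and Trac 935, so this share of counts does not rank the levels of these genes. Per kilobase of exon, Trac averaged 1.08 and Trdc 0.465 CPM per kb in ft/ft. In ft/ftMyD88-/- these were 2.31 and 0.868 CPM per kb.

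**Figure D3:**
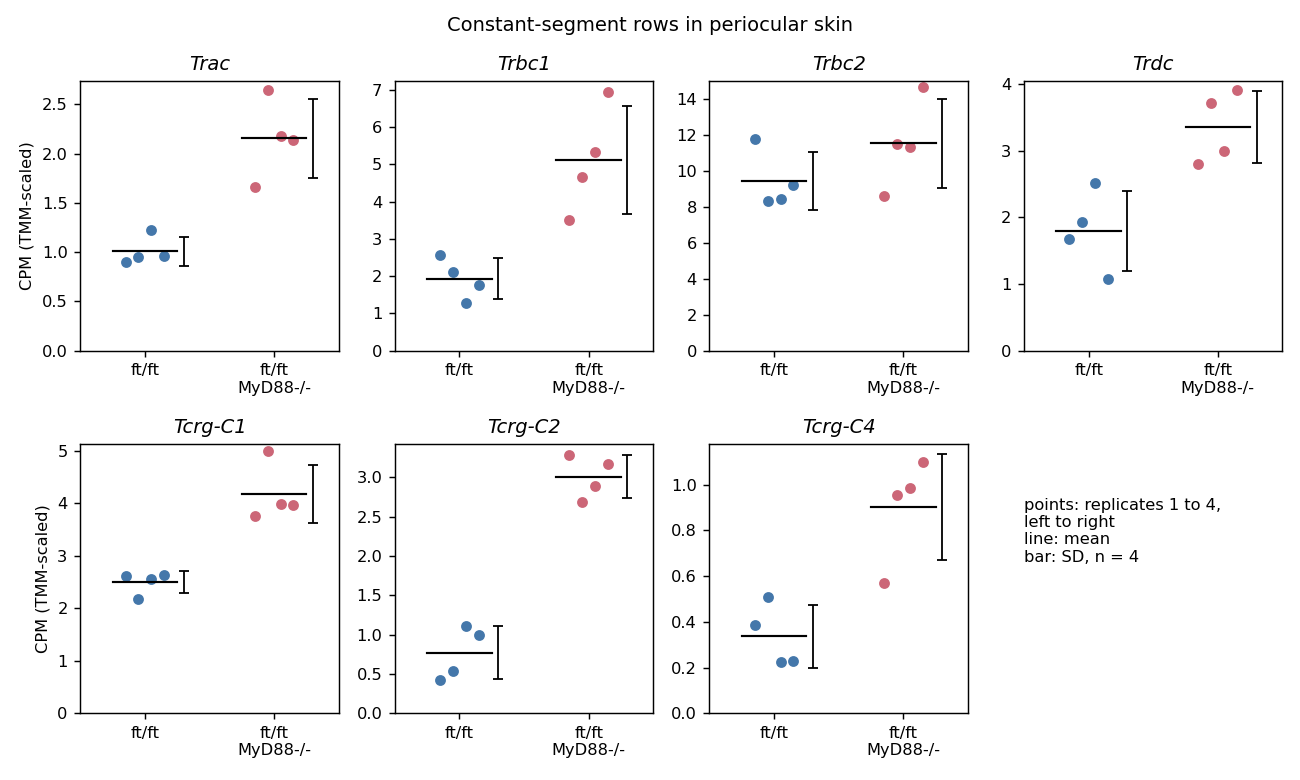
TMM-scaled CPM (vertical axes, from 0, with a scale of its own in each panel) of the 4 constant rows of the rule and the 3 Tcrg constant rows in 4 ft/ft (blue) and 4 ft/ftMyD88-/- (red) libraries, with the mean as a line and the SD as a bar. The groups are apart in every panel except Trbc2, where ft/ft replicate 1 lies above 3 of the ft/ftMyD88-/- libraries.

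The gamma constant segments, which the symbol rule left out, rose as well. Tcrg-C2 had 10, 15, 20 and 26 counts in ft/ft libraries and 75, 73, 85 and 52 in those labelled ft/ftMyD88-/-. The groups lay far apart (0.772 against 3.01 CPM), and its log2 fold change was 1.97 (SE 0.280, adjusted p = 6.0e-04). Tcrg-C1, the segment joined to Vγ4, Vγ5 and Vγ6, had 61, 60, 46 and 69 against 86, 136, 117 and 65 counts, and Tcrg-C4 had 9, 14, 4 and 6 against 13, 26, 29 and 18. Both passed the test, at log2 fold changes of 0.74 (adjusted p = 0.00764) and 1.37 (adjusted p = 0.0163), and Tcrg-C4 lost its call without ft/ft replicate 4 (adjusted p = 0.0520). The 3 rows together averaged 3.61 ± 0.331 CPM in ft/ft and 8.09 ± 0.442 CPM in ft/ftMyD88-/-. Tcrg-C2 made up 12.5 to 28.6% of their counts in ft/ft and 31.1 to 43.1% in ft/ftMyD88-/-, with no overlap.

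**Figure D4:**
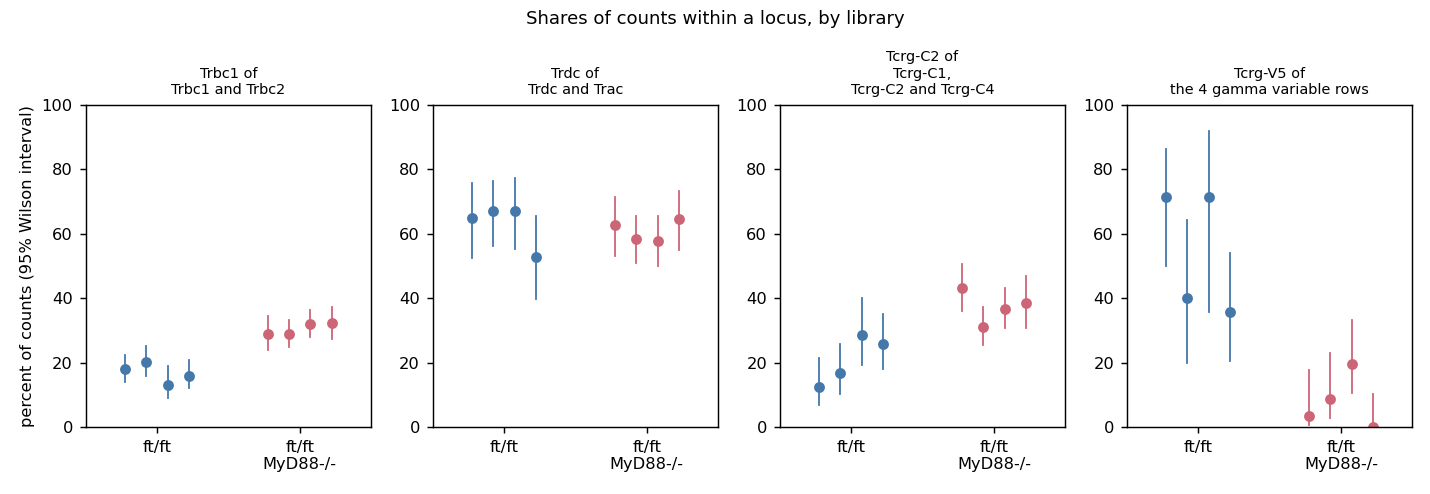
Percent of counts (vertical axes) taken by Trbc1 within the beta constant rows, Trdc within Trdc and Trac, Tcrg-C2 within the 3 gamma constant rows and Tcrg-V5 within Trgv2 and the 3 Tcrg variable rows, per library in replicate order with 95% Wilson intervals, ft/ft in blue and ft/ftMyD88-/- in red. The groups are apart in every panel except that of Trdc. The shares of Trgv2 and Trdv4, given only in the text, overlapped.

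The variable segments held 464 counts over 12 rows, and the differences rest on few reads. Of the 11 tested, 3 were higher in ft/ftMyD88-/- (Trgv2, Trbv13-1 and Trbv19) and 0 were lower. Among all genes tested, 10.9% were higher and 12.3% lower. Trbv13-1 and Trbv19, with 1 ft/ft count each, met the filter of 10 counts only through the ft/ftMyD88-/- libraries. Only 1 variable row was higher without ft/ft replicate 1 or without ft/ftMyD88-/- replicate 4. A count of 0 in 1 library allows up to 3 counts, which is 0.102 to 0.183 CPM depending on the library.

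Trgv2, which encodes a gamma chain V domain, rose in ft/ftMyD88-/- skin. It had 6, 7, 1 and 17 counts in ft/ft libraries and 17, 26, 26 and 28 in those labelled ft/ftMyD88-/-. In CPM the groups did not overlap, though the nearest libraries were close (0.652 in ft/ft replicate 4 and 0.745 in ft/ftMyD88-/- replicate 1). The means were 0.305 ± 0.250 and 1.07 ± 0.432 CPM, and the log2 fold change was 1.70 (SE 0.483, adjusted p = 0.0241). The call was lost without ft/ft replicate 1 (adjusted p = 0.0600), without ft/ft replicate 2 (0.0603) and without ft/ftMyD88-/- replicate 4 (0.0743). Trgv2 counts per 100 Tcrg-C2 counts were 60.0, 46.7, 5.0 and 65.4 in ft/ft libraries and 22.7, 35.6, 30.6 and 53.8 in those labelled ft/ftMyD88-/-. The groups overlapped in this ratio, and ft/ft replicate 3 was the lowest.

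Neither delta V row passed the test. Trdv4, which encodes Vδ1, had 24, 21, 20 and 21 counts in ft/ft libraries and 19, 15, 21 and 9 in those labelled ft/ftMyD88-/-. The groups overlapped (0.928 ± 0.171 against 0.662 ± 0.138 CPM), and the log2 fold change of -0.46, the only negative value among the 15 tested rows, did not pass the test (SE 0.274, adjusted p = 0.246). Relative to Trdc the groups were apart, with 61.5, 39.6, 44.4 and 75.0 Trdv4 counts per 100 Trdc counts in ft/ft libraries and 29.7, 14.9, 23.9 and 14.1 in those labelled ft/ftMyD88-/-. Per kilobase of exon Trdv4 averaged 2.09 CPM per kb in ft/ft and 1.49 CPM per kb in ft/ftMyD88-/-.

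Trdv5, another delta V segment, had 0, 4, 0 and 2 counts in ft/ft libraries and 3, 6, 7 and 7 in those labelled ft/ftMyD88-/-. The groups overlapped in CPM and the log2 fold change of 1.90 did not pass (SE 0.773, adjusted p = 0.0944). It passed without ft/ft replicate 2 (adjusted p = 0.0481). Since the end of Trdv5 lies opposite an exon of Trdc, which itself rose, the part of Trdc reads in these counts was not tested. The summed delta V level was 0.984 ± 0.109 CPM in ft/ft and 0.916 ± 0.0967 CPM in ft/ftMyD88-/-, a log2 ratio of -0.10 that turned to 0.07 when libraries were scaled by their totals alone. Trdv4 made up 84.0 to 100% of the summed Trdv4 and Trdv5 counts in ft/ft and 56.25 to 86.4% in ft/ftMyD88-/-, with overlap.

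The gamma V rows outside the rule gave values for the receptors of the known skin subsets. Tcrg-V5, which encodes Vγ5, had 15, 6, 5 and 10 counts in ft/ft libraries and 1, 3, 9 and 0 in those labelled ft/ftMyD88-/-. The groups overlapped, and the log2 fold change of -1.51 did not pass (SE 0.669, adjusted p = 0.122), but did without ft/ftMyD88-/- replicate 3 (-2.57, adjusted p = 0.0292). Its share of the summed counts of Trgv2 and the 3 Tcrg V rows was 35.7 to 71.4% in ft/ft and 0 to 19.6% in ft/ftMyD88-/-, with no overlap, where 0 of 33 counts in ft/ftMyD88-/- replicate 4 allows a share of up to 9.09%. The share of Trgv2 in the same sum was 14.3 to 60.7% in ft/ft and 56.5 to 84.8% in ft/ftMyD88-/-, with overlap. Tcrg-V4, which encodes Vγ4, had 0, 2, 0 and 0 counts in ft/ft libraries and 5, 4, 4 and 3 in those labelled ft/ftMyD88-/-. These groups did not overlap and the row passed (adjusted p = 0.0413), with a ratio of summed scaled counts of 7.92 and an exact 95% counting interval of 1.86 to 71.0.

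The call of Tcrg-V4 was lost when any 1 of 7 of the 8 libraries was left out (all but ft/ft replicate 2), with adjusted p from 0.0525 to 0.101 in those fits, and also under DESeq2 (0.0621). Tcrg-V6, which encodes Vγ6, had 0, 0, 1 and 1 counts in ft/ft libraries and 5, 1, 7 and 2 in those labelled ft/ftMyD88-/-, and its groups overlapped. It did not pass (adjusted p = 0.0652), with a ratio of 7.42 and a counting interval of 1.73 to 66.9, and passed without ft/ftMyD88-/- replicate 2 (adjusted p = 0.0372) and with scaling by library totals alone (0.0439). Altogether 4 of the 6 Tcrg rows were higher and 0 lower, against 10.9% and 12.3% of all genes tested. Tcrg-V4 and Tcrg-V6, with 2 ft/ft counts each, reached the 10 counts needed for the test only through the ft/ftMyD88-/- libraries. The filter itself therefore favours a higher value in these rows.

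The beta V rows shared a low level, and 2 of the 8 tested passed, where 10.9% of all genes tested were higher. Both met the filter of 10 counts only through the ft/ftMyD88-/- libraries. Trbv19 had 0, 1, 0 and 0 counts in ft/ft libraries and 5, 3, 7 and 2 in those labelled ft/ftMyD88-/-, with no overlap between the groups. It passed the test (adjusted p = 0.0151) and kept its call in each of 14 other fits. Since a fitted fold change at so few counts depends on edgeR's prior count, the ratio of summed scaled counts is given, which was 16.8 with an exact counting interval of 2.64 to 703. Trbv13-1 had 0, 0, 1 and 0 counts in ft/ft libraries and 1, 4, 6 and 2 in those labelled ft/ftMyD88-/-, and the groups overlapped in CPM. Its ratio was 12.9 (interval 1.93 to 547), and its adjusted p of 0.0446 rose to between 0.0740 and 0.108 without ft/ft replicate 1, 2 or 4 or without ft/ftMyD88-/- replicate 2 or 4.

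Trbv1 had 2, 2, 1 and 1 counts in ft/ft libraries and 2, 6, 13 and 3 in those labelled ft/ftMyD88-/-. Its groups did not overlap in CPM, but it did not pass (log2 fold change 1.85, adjusted p = 0.0588). It passed without ft/ftMyD88-/- replicate 1 (adjusted p = 0.0323) and when libraries were scaled by their totals alone (0.0353). The remaining tested beta rows, Trbv2, Trbv13-2, Trbv13-3, Trbv16 and Trbv29, held from 0 to 7 counts in each library and overlapped between the groups. Trbv13-2, the most counted of these, had 2, 0, 6 and 5 counts in ft/ft libraries and 2, 3, 7 and 6 in those labelled ft/ftMyD88-/- and a log2 fold change of 0.42 that did not pass. Trbv31, whose segment lies on the opposite strand beyond Trbc2, had 0, 2, 1 and 0 counts in ft/ft libraries and 1, 0, 3 and 2 in those labelled ft/ftMyD88-/- and was not tested.

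The 9 beta V rows together held 8, 8, 15 and 14 counts in ft/ft libraries and 15, 29, 45 and 23 in those labelled ft/ftMyD88-/-. Their mean was 0.502 ± 0.247 CPM in ft/ft and 1.16 ± 0.391 CPM in ft/ftMyD88-/-, with overlap between the groups. The 2 beta C rows together averaged 11.3 ± 2.05 and 16.6 ± 3.89 CPM, also with overlap. Beta V counts per 100 beta C counts ran between 2.40 and 8.62 in ft/ft libraries and between 5.43 and 9.18 in those labelled ft/ftMyD88-/-. Most beta V segments have no row here: of 35 beta V names in GENCODE M21 the table held 9, and of 128 alpha V names it held 0, the others being not analysed here.

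The number of the 12 V rows with a count was read in each library. At least 1 count was found for 6, 8, 9 and 8 rows in the ft/ft libraries and for 11, 11, 12 and 10 rows in the ft/ftMyD88-/- libraries. The V totals differed, with 36 to 54 counts per ft/ft library and 54 to 99 per ft/ftMyD88-/- library. At an equal 36 V counts the expected number was 5.94, 7.78, 9.0 and 7.38 in ft/ft libraries and 9.31, 9.72, 10.1 and 9.18 in those labelled ft/ftMyD88-/-. Trbv13-1 and Trbv19, with 1 ft/ft count each, met the minimum of 3 counts only through the ft/ftMyD88-/- libraries and so add to detection there by the rule itself. Over the other 10 rows, a choice made after seeing the data, the numbers were 6, 7, 8 and 8 in ft/ft and 9, 9, 10 and 8 in ft/ftMyD88-/-, and the groups overlapped.

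**Figure D5:**
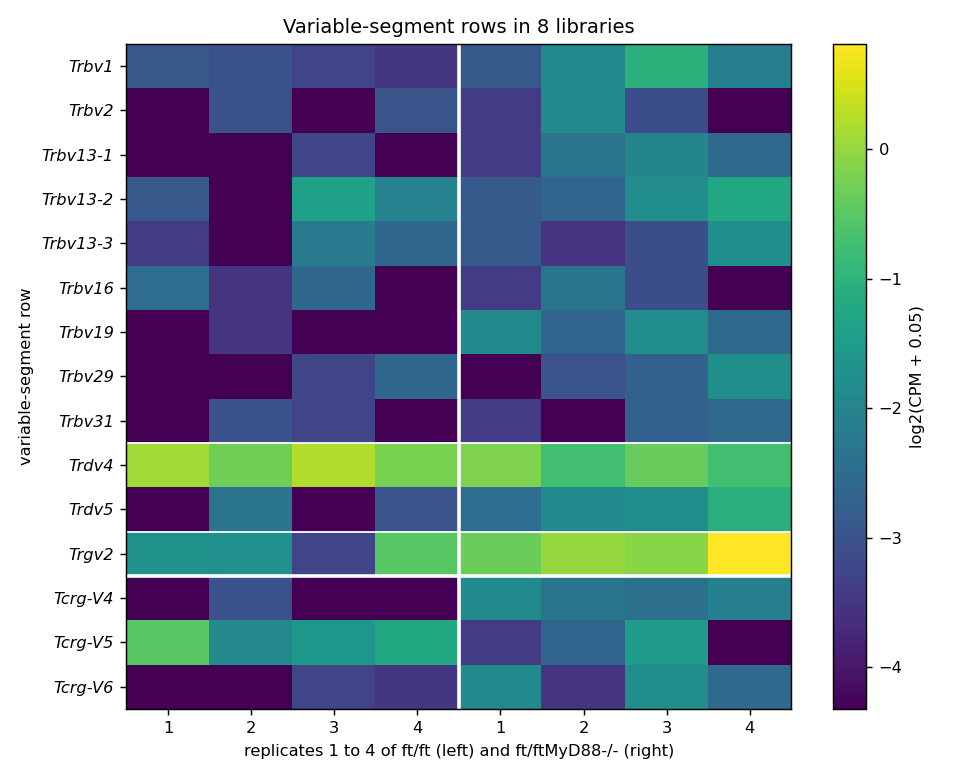
Level of the 12 variable rows (above the thick line) and the 3 Tcrg variable rows (below it) as log2(CPM + 0.05), by color, in replicates 1 to 4 of ft/ft (left) and ft/ftMyD88-/- (right). Trdv4 is bright in every library, Trgv2 is brighter on the right, and Trbv13-1, Trbv19 and Tcrg-V4 are dark on the left except for 1 library each.

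The chains that signal for the receptor moved with it. Of the 7 genes listed for the CD3 complex and co-receptors, 6 were higher in ft/ftMyD88-/- and 0 lower, with a median log2 fold change of 0.88. Among all genes tested, 10.9% were higher and 12.3% lower, and the same holds beside each list below. The CD3 chains Cd3d, Cd3e and Cd3g, which every surface T cell receptor needs, rose by 1.04, 0.78 and 0.57 on the log2 scale (adjusted p = 0.0215, 0.0132 and 0.0167), and Cd247, the zeta chain, had 0.33 and did not pass (adjusted p = 0.279). Cd3d lost its call without ft/ft replicate 2, ft/ft replicate 4 or ft/ftMyD88-/- replicate 4 (adjusted p = 0.0565, 0.0674 and 0.0662) and Cd3g without ft/ft replicate 4 (0.0518). The co-receptor Cd4 rose from 2.54 to 4.65 CPM (log2 fold change 0.88, adjusted p = 0.0118). Cd8a rose from 0.0916 to 1.06 CPM (3.41, adjusted p = 9.7e-04) and Cd8b1 from 0.0712 to 0.327 CPM (2.29, adjusted p = 0.0166), the latter not passing without ft/ft replicate 4 (0.0510).

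Of 22 genes listed for signalling below the receptor, 12 were higher and 0 lower, with a median log2 fold change of 0.73. The kinases Lck (1.03, adjusted p = 0.00397) and Zap70 (1.18, adjusted p = 7.6e-04) and the adaptor Lat (0.94, adjusted p = 0.00286) were among those that rose. Fyn, Plcg1 and Bcl11b, which keratinocytes also express, had log2 fold changes of 0.11, -0.06 and 0.17 and did not pass. Of the genes listed for receptor gene assembly only Dntt, the polymerase that adds bases at the joint, had a row. It reached the 10 counts needed for the test only through the ft/ftMyD88-/- libraries. It held 2 counts in ft/ft libraries and 16 in those labelled ft/ftMyD88-/-, a ratio of 7.92 with a counting interval of 1.86 to 71.0, and passed (adjusted p = 0.0378), but not in 6 of the 8 fits that left out 1 library (all but those without ft/ft replicate 1 or ft/ftMyD88-/- replicate 3), where adjusted p was 0.0555 to 0.0946, nor under DESeq2 (0.0606).

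Some markers on the other lists differed too, to be read beside the 10.9% higher and 12.3% lower among all genes tested. Of 4 pan-leukocyte genes, 3 were higher and 0 lower, among them Ptprc, which encodes CD45 (22.2 against 36.1 CPM, log2 fold change 0.70), and the list summed to 117 to 147 CPM in ft/ft and 154 to 210 CPM in ft/ftMyD88-/-. Of the gamma delta T17 list, 6 of 11 tested genes were higher, with Il17a at 0.110 and 2.33 CPM and Blk, a kinase of these cells, at 2.08 and 5.86 CPM. Of the epidermal gamma delta T cell list, 2 of 4 were higher (Itgae and Klrk1) and 1 lower (Ahr), while the chemokine Xcl1 had a log2 fold change of -0.50 and did not pass. Of the alpha beta subset list, 2 of 8 were higher (Foxp3, at 0.545 and 1.15 CPM, and Icos, at 1.42 and 5.57 CPM) and 0 lower. The part of these shifts in the receptor values was not tested.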

How the data were processed

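The deposited table holds raw read counts per gene, made by the authors with HTSeq at default settings. Per the study's methods, polyA RNA was prepared with the TruSeq mRNA v2 kit, sequenced single-end for 50 cycles and aligned with HISAT and tophat2 to GRCm38.p6. The labels instead name Cell Ranger and a protocol for fixed tissue, and the strand setting of the counting is not given in the sources used here. Reads matching several segments may be split or dropped, and BALB/c alleles may align less well than the reference.

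Counts were analysed with edgeR 4.0.16 (R 4.3.3, TMM, robust glmQLFit and glmQLFTest, rows with at least 10 counts, Benjamini-Hochberg over all rows, threshold 0.05). Library totals are in the text. Tested on simulated data of the ft/ftMyD88-/- against ft/ft comparison over 20227 genes, the fit called 174 of 200 genes changed 4-fold and 6 unchanged genes. The simulation gave every gene the same dispersion and drew the changed genes from all rows with at least 10 counts. It therefore does not give the recovery for rows of few counts such as the V rows. Alternatives were DESeq2 1.42.0, limma 3.58.1 voom, RLE or library-size scaling, other filters, a replicate block and leaving out each library. Segment lengths, positions and sequences came from GENCODE M21, which matched all 24 receptor rows by name. Shares carry Wilson intervals (SciPy 1.17.1). No pair of replicates agreed within counting noise. Named were all C rows, V rows that passed, the 10 most counted V rows and called or defining genes of the lists. Other V rows, Fyn, Plcg1 and Bcl11b were named after their values were seen. The segments and lists were chosen with earlier results of these data known. Results of some listed genes are not reported here. The lists cover the receptor complex, signalling, assembly, gamma rows, gamma delta T17, epidermal gamma delta T, alpha beta subset, natural killer, B, macrophage, neutrophil, dendritic, pan-leukocyte and keratinocyte cells.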

Additional observations from a re-analysis of the deposited data

Results flagged for a closer look

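In 5 results 1 library lay far from the other 3 of its group. Of 62 groups checked, about 1 in 20 would show this by chance. In the ft/ft group, Trbv13-1 was at 0.0558 CPM in replicate 3, Trbv19 at 0.0364 CPM in replicate 2 and Tcrg-V4 at 0.0727 CPM in replicate 2, each against 0 in the other libraries, values that stand for 1 or 2 reads. With 0 in all the other libraries of a group any count is flagged, so the rate of 1 in 20 does not apply to these rows. The summed delta variable level was 0.772 CPM in ft/ftMyD88-/- replicate 2 against 0.953 to 0.976 CPM in the others of that group. The share of Trdc in the Trdc and Trac counts was 52.8% in ft/ft replicate 4 (Wilson 95% interval 39.7 to 65.6%) against 65.0 to 67.2% in the other ft/ft libraries.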

How the results depend on the processing

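Of 118 recomputed summaries, 112 kept their direction and stayed within 1.5 times their value or within 1 SD. The number of segments called higher, 6, ran from 3 to 7 over the fits that left out 1 library, with 3 without ft/ftMyD88-/- replicate 4. The number of constant segments called higher, 3, ran from 2 to 3, and of variable segments, 3, from 1 to 4, the lowest, 1, in the fits without ft/ft replicate 1 and ft/ftMyD88-/- replicate 4. Under filterByExpr only 2 variable segments were tested and 1 was higher, because fewer rows passed the filter. DESeq2 called 5 segments higher and gave no adjusted p for Trbv13-1. Scaling by library totals alone moved the median log2 fold change of all genes to 0.19 and the share of calls that were higher from 47% to 77.8%, called 7 segments and turned the delta variable log2 ratio from -0.10 to 0.074. The difference in detected variable segments, 3.25 on average, was 1.75 over the 10 segments with at least 3 counts in each group, an alternative chosen after seeing the data, because segments that met the minimum through 1 group were left out.

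Of 500 recomputed fold changes of named genes, 6 changed direction, all in rows that did not pass. Over the fits that left out 1 library Trbv13-2 ran from -0.038 (without ft/ft replicate 2) to 1.03, Trbv13-3 from -0.23 (without ft/ftMyD88-/- replicate 4) to 0.84 and Trbv16 from -0.29 (without ft/ft replicate 4) to 0.67. Without ft/ft replicate 2, Trbv13-3 was at -0.10 and Trbv16 at -0.073, and Trbv16 was at -0.017 with the replicate block. The cause was not tested. Replicate numbers are shared between the groups, but same-numbered libraries did not deviate together (correlations -0.235, 0.0406, 0.0512 and -0.0507) and did not each correlate best with their own number, so they share only a number. With the replicate block 5 segments were higher, and the calls lost were those of Trbv13-1 (adjusted p = 0.0831), Tcrg-V4 (0.0840) and Dntt (0.0560). At these depths a V row with 0 counts in a library could hold up to 3 counts.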

Other observations

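Other receptor rows lie outside the symbol rule. Trbd1, a diversity segment, had 0, 1, 1 and 0 counts in ft/ft libraries and 0, 7, 5 and 3 in those labelled ft/ftMyD88-/- and did not pass (log2 fold change 2.60, adjusted p = 0.0906), but did without ft/ftMyD88-/- replicate 1 (0.0296). Trbj2-7, a joining segment, had 0, 3, 2 and 4 counts in ft/ft libraries and 0, 1, 3 and 1 in those labelled ft/ftMyD88-/- and did not pass (-0.81, adjusted p = 0.566). Both are shorter than a read.

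Marker lists of cells without a T cell receptor gave these values, ft/ft first, where 10.9% of all genes tested were higher and 12.3% lower. Of the natural killer and innate lymphoid list 2 of 5 tested genes were higher and 0 lower, Ncr1 at 0.169 against 0.472 CPM and Klrd1 at 0.214 against 0.787 CPM. Of 7 tested B and plasma cell genes only Jchain was higher, at 1.63 against 15.3 CPM, while the B cell genes Cd79a and Cd79b did not pass. Of 6 macrophage genes 2 were higher (Lyz2, 260 against 514 CPM, and C1qa, 67.4 against 96.2 CPM) and Adgre1 did not pass. Of 4 neutrophil genes 1 was higher (Csf3r, 3.28 against 8.82 CPM), and of 5 Langerhans and dendritic cell genes 2 were higher (Cd207, 22.9 against 35.2 CPM, and Xcr1, 2.18 against 4.97 CPM). None of these 4 lists held a lower gene, nor did the natural killer list.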
